A study of Homo sapiens with 4 samples.

Results

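Ribosome biogenesis is described here through 45 genes that encode RNA polymerase I (Pol I) subunits, nucleolar proteins, proteins of small nucleolar ribonucleoproteins (snoRNPs) and assembly factors of the small and the large ribosomal subunit. They were chosen as a list of names by function, with earlier results of these data known. All 45 were found among the 25680 genes of each deposited table, UTP4 under its older symbol CIRH1A, and all 45 were among the 16108 genes tested. RNA-seq had been made from THP-1 cells, an established human monocytic leukaemia line, in 2 groups of 2 libraries. The shPIWIL4 cells received a lentivirus with a short hairpin RNA against PIWIL4, a PIWI-family Argonaute gene, and the Scrambled cells a lentivirus with a scrambled hairpin. Both groups were sorted 48 hours after transduction, and the labels name 1 hairpin against PIWIL4, no rescue and no batch, so that effects of lower PIWIL4 and other effects of that hairpin or of a batch that follows the groups cannot be told apart. The labels do not say that the libraries came from separate cultures, so p-values measure the spread between these libraries, which may be technical. The study compared the groups to find genes whose expression differs in AML cells after PIWIL4 knockdown.

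Ribosome production starts in the nucleolus, where Pol I transcribes the long precursor of the ribosomal RNAs. Box C/D snoRNPs guide methylation of the precursor and box H/ACA snoRNPs guide its pseudouridylation, while large sets of assembly factors fold and cut it and add ribosomal proteins to it. Many of the genes are known targets of MYC, which binds the E-box sequence, and the demand for ribosomes is high in growing leukaemia cells.

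The titles name the groups, while the treatment label of the shPIWIL4 libraries holds the word scrambled beside the hairpin against PIWIL4, so PIWIL4 itself was looked up as a check of the labels. The libraries held 50689304 and 53657246 counts for shPIWIL4 libraries 1 and 2, and 31458079 and 51655687 counts for Scrambled libraries 1 and 2. PIWIL4 itself was at 17.8 and 17.4 CPM (counts relative to the library total, scaled by TMM factors) in shPIWIL4 libraries 1 and 2, against 38.5 and 37.2 CPM in Scrambled libraries 1 and 2. The 2 groups did not overlap, PIWIL4 was lower in the libraries titled shPIWIL4, and it had a log2 fold change of -1.10 (SE 0.09, adjusted p = 1.3e-05 in edgeR's quasi-likelihood test). All 13 myeloid marker genes looked up were above 1 TPM (the deposited level per gene length) in all 4 libraries, the T cell, erythroid, epithelial and fibroblast markers each summed to at most 2.75 TPM in any library, and 2 of 4 B cell markers were above 1 TPM in all libraries (summed 7.15 and 7.11 TPM in shPIWIL4, 15.8 and 16.2 TPM in Scrambled). The summed myeloid markers were at 4300 and 4130 TPM in the shPIWIL4 libraries and 1680 and 1720 TPM in the Scrambled libraries. Much of that gap lay in LYZ, lysozyme, at 2500 and 2430 TPM in shPIWIL4 and 187 and 203 TPM in Scrambled, while CD4 was at 82.3 and 85.4 TPM in shPIWIL4 and 139 and 132 TPM in Scrambled, and CSF1R and MPO were also below in both shPIWIL4 libraries. The part of these markers in the results below was not tested. The 2 shPIWIL4 libraries differed more from each other than the 2 Scrambled libraries, with a chi-square per gene of 27.9 against 7.89.

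Most of the 45 transcripts were higher in the shPIWIL4 libraries, by small amounts. In edgeR's quasi-likelihood test 24 rose, 1 fell and 20 did not pass an adjusted p of 0.05, which is 53.3% higher and 2.22% lower, set against a background of 28.7% higher and 29.1% lower over all genes tested (57.7% in either direction). Where the mean was 10 CPM or more (9756 genes), 38% were higher and 23.3% were lower. The median log2 fold change of the 45 was 0.30, against -0.0034 over all genes tested and 0.11 over those 9756 genes. Both shPIWIL4 libraries lay above both Scrambled libraries for 35 of the 45 and below them for 2, a separation found in 39.1% and 39.5% of all genes tested (78.6% in either direction). The log2 fold changes ran from -0.43 for FBL to 0.79 for NOP14, so that 0 of 45 reached a 2-fold change, which 16.1% of all genes tested did with an adjusted p under 0.05, and 9 of 45 were higher by at least 1.5-fold, against 14.6% of all genes tested. Without shPIWIL4 library 1 the median was 0.35 for the 45 and -0.0047 over all genes tested. Without shPIWIL4 library 2 these medians were 0.27 and -0.0093. These are shares of bulk RNA relative to the centre of all genes, and fewer cells of a type and less RNA per cell cannot be told apart. With upper-quartile factors the median of all genes moved to -0.12 and that of the 45 to 0.18, with 19 higher and 2 lower, while over all genes 3446 were then higher and 5717 lower, against 4618 and 4683 with TMM. The distance between the 2 medians was 0.30 under both scalings, but a change of scaling shifts both medians nearly alike. With the filter at a mean of 10 CPM the distance was 0.19, from medians of 0.20 for the 45 and 0.0094 for all genes kept. Under that filter 17 of the 45 were called higher.

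**Figure D1:**
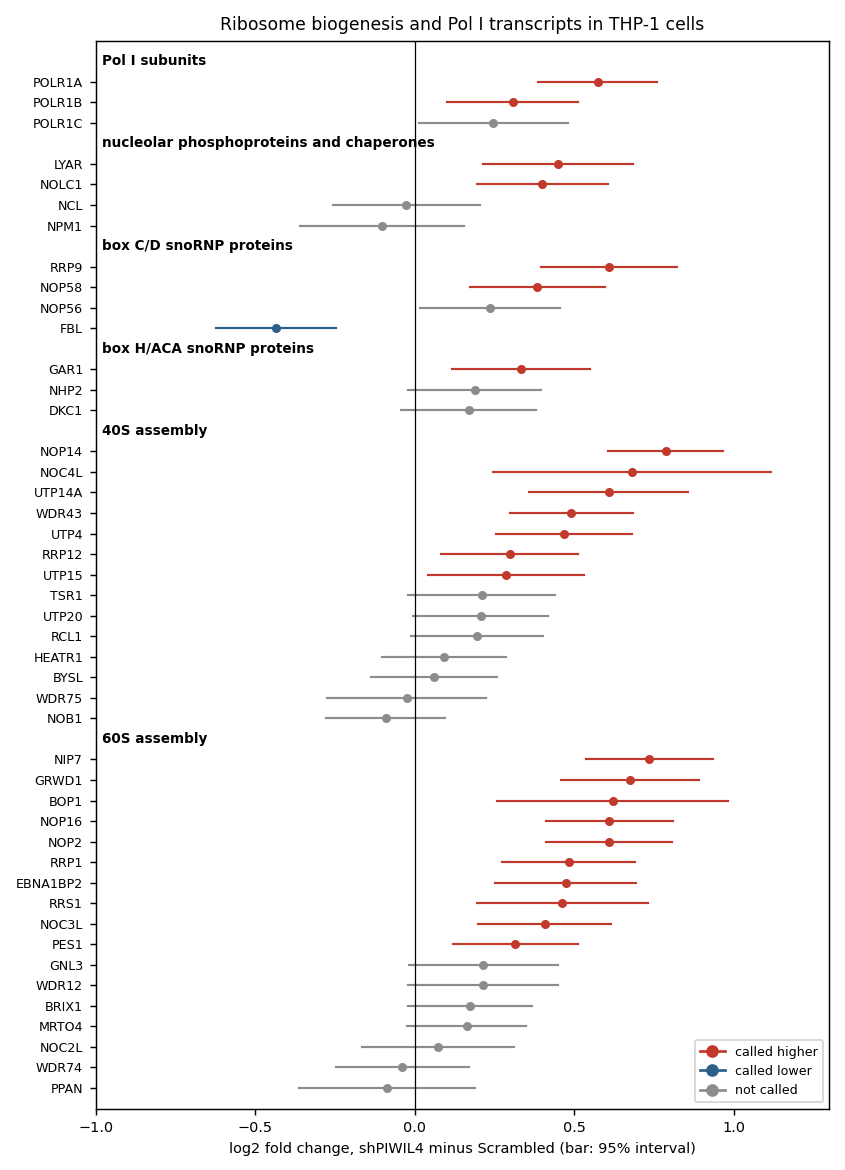
Log2 fold change (shPIWIL4 minus Scrambled) of each of the 45 transcripts, by role, with its 95% interval from edgeR's quasi-likelihood fit. The 24 red points are called higher, FBL is called lower at -0.43, and the 20 grey points did not pass an adjusted p of 0.05.

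The 3 Pol I subunit transcripts among the 45 were higher in both shPIWIL4 libraries, though not all passed the test. Other Pol I subunits, given further below, went both ways, and POLR1D and POLR1G were called lower. POLR1A, the largest catalytic subunit, was at 68.2 and 70.7 CPM in the shPIWIL4 libraries, against 47.9 and 45.5 CPM in the Scrambled libraries. These libraries stood clearly apart, with a log2 fold change of 0.57 (SE 0.08) and an adjusted p of 0.000326 in edgeR's test. POLR1B, the second-largest subunit, was at 40.9 and 44.7 CPM in shPIWIL4 and 35.4 and 33.8 CPM in Scrambled, a smaller gap with a log2 fold change of 0.31 (SE 0.09, adjusted p = 0.0166, edgeR), called in 10 of 14 alternatives and not without Scrambled library 2. POLR1C, which Pol I shares with RNA polymerase III, was at 49.3 and 58.3 CPM in shPIWIL4 and 47.4 and 43.4 CPM in Scrambled. Its lowest shPIWIL4 library lay just above the highest Scrambled one, and it was not called (0.25, 95% interval 0.01 to 0.48, edgeR adjusted p = 0.0662). Per length, the ratio of POLR1A to POLR1B TPM was 1.38 and 1.31 in the shPIWIL4 libraries and 1.12 and 1.12 in the Scrambled libraries, a ratio chosen after the values were seen. With 2 libraries against 2 the smallest two-sided exact permutation p is 0.333, so this ratio has no test that could pass 0.05.

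The nucleolar phosphoprotein and chaperone genes divided into a pair that rose and a far more abundant pair that did not pass the test. NPM1, nucleophosmin, a nucleolar chaperone whose gene is often mutated in acute myeloid leukaemia, was at 923 and 1137 CPM in the shPIWIL4 libraries, against 1141 and 1071 CPM in the Scrambled libraries. NCL, nucleolin, which binds nascent ribosomal RNA precursors, was at 947 and 1103 CPM in shPIWIL4 and 1065 and 1023 CPM in Scrambled. For both genes the groups overlapped, since shPIWIL4 library 1 was lowest and the other shPIWIL4 library lay near or above the Scrambled ones. The log2 fold changes were -0.10 for NPM1 (95% interval -0.36 to 0.15) and -0.03 for NCL (-0.26 to 0.20), and these intervals leave room for falls of either gene or small rises. Without shPIWIL4 library 2, NPM1 was called lower (-0.25, edgeR adjusted p = 0.0223). GENCODE 29 annotates 45 pseudogenes named after NPM1, and its count is uncertain where reads of such copies are shared. NOLC1, a chaperone of snoRNPs, was at 187 and 209 CPM in shPIWIL4 and 156 and 143 CPM in Scrambled, and rose by 0.40 (SE 0.09, edgeR adjusted p = 0.00441). LYAR, a nucleolar zinc-finger protein gene, was at 28.2 and 32.7 CPM in shPIWIL4 and 22.8 and 21.9 CPM in Scrambled, and rose by 0.45 (SE 0.10, edgeR adjusted p = 0.00504).

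Box C/D snoRNP genes held the only transcript of the 45 that fell. FBL, fibrillarin, the methyltransferase of these particles, was at 121 and 126 CPM in the shPIWIL4 libraries, against 174 and 160 CPM in the Scrambled libraries. Both shPIWIL4 libraries were below both Scrambled ones, and FBL fell by 0.43 on the log2 scale (SE 0.08, edgeR adjusted p = 0.00174). It was called lower under all 14 alternatives run, where its adjusted p was at most 0.0353, the value without Scrambled library 1 (edgeR). NOP58, a core scaffold of the same particle, was at 131 and 153 CPM in shPIWIL4 and 111 and 106 CPM in Scrambled, and rose by 0.38 (SE 0.09, edgeR adjusted p = 0.00638). Its paralog NOP56 was at 221 and 257 CPM in shPIWIL4 and 211 and 195 CPM in Scrambled, above in both shPIWIL4 libraries but not called (0.24, 95% interval 0.02 to 0.45, edgeR adjusted p = 0.063). RRP9, a protein specific to the U3 particle, was at 38.4 and 35.0 CPM in shPIWIL4 and 24.4 and 23.8 CPM in Scrambled, and had the largest rise of the C/D genes at 0.61 (SE 0.09, edgeR adjusted p = 0.000495).

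FBL and its partners thus stood in another proportion to each other in the 2 groups. Per length, the TPM ratio of FBL to NOP58 was 1.55 and 1.39 in the shPIWIL4 libraries and 2.63 and 2.54 in the Scrambled libraries. FBL to NOP56 gave 1.03 and 0.923 in shPIWIL4, against 1.55 and 1.54 in Scrambled. The NOP56 to NOP58 ratio, 1.51 and 1.51 in shPIWIL4 and 1.70 and 1.65 in Scrambled, moved less. The groups did not overlap in any of these 3 ratios, which were chosen after the values were seen and cannot give an exact permutation p below 0.333.

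Box H/ACA genes were above in both shPIWIL4 libraries for all 3 members, and 1 was called. GAR1, a core protein of the particle, was at 22.7 and 21.6 CPM in shPIWIL4, against 17.8 and 17.4 CPM in Scrambled, with a log2 fold change of 0.33 (SE 0.10, edgeR adjusted p = 0.0148). It was called in 9 of 14 alternatives, and not without Scrambled library 1 or without Scrambled library 2. DKC1, dyskerin, the pseudouridine synthase, was at 142 and 161 CPM in shPIWIL4 and 141 and 129 CPM in Scrambled, a gap of under 1 CPM between the closest libraries (0.17, 95% interval -0.04 to 0.38, edgeR adjusted p = 0.15). NHP2, the remaining core protein, had a log2 fold change of 0.19 (95% interval -0.02 to 0.39).

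Among 14 genes of small-subunit (40S) assembly, 7 rose and 0 fell, with a median of 0.25. NOP14, a component of the small-subunit processome, was at 87.6 and 90.8 CPM in the shPIWIL4 libraries, against 52.2 and 51.2 CPM in the Scrambled libraries. The groups were far apart, and it had the largest log2 fold change and the smallest p of the 45, with a value of 0.79 (SE 0.08, 1.73-fold, edgeR adjusted p = 3.98e-05). An antisense gene overlaps 605 exonic bases of NOP14 in GENCODE 29, and without a stated strand setting reads of the 2 cannot be told apart. The same holds for longer overlaps with opposite-strand genes in HEATR1 (2095 bases), TSR1 (1156), POLR1C (1009) and NIP7 (957), and for shorter ones in other genes of the 45. NOC4L, whose protein partners with NOP14, was at 18.5 and 12.3 CPM in shPIWIL4, against 8.25 and 10.8 CPM in Scrambled. Its libraries scattered most of the 14, the groups came close, and the log2 fold change of 0.68 had an SE of 0.19 (edgeR adjusted p = 0.0136). Its call was lost with library totals, without a filter on low counts and with the filter at a mean of 10 CPM (edgeR adjusted p up to 0.085), and its log2 fold change was 0.36 without shPIWIL4 library 1. UTP14A, which activates a processome helicase, was at 50.9 and 60.8 CPM in shPIWIL4 and 39 and 34.4 CPM in Scrambled, a rise of 0.61 (SE 0.11, edgeR adjusted p = 0.00126).

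The UtpA subcomplex, which binds the start of the precursor and is linked to its transcription, is represented by 5 of these genes. WDR43 was at 75.7 and 82.1 CPM in shPIWIL4 and 57.9 and 54.5 CPM in Scrambled, UTP4 was at 84.8 and 97.7 CPM in shPIWIL4 and 68.6 and 63.4 CPM in Scrambled, and both groups were apart. They rose by 0.49 (SE 0.09) and 0.47 (SE 0.09), and UTP15 rose by 0.29 (SE 0.11, edgeR adjusted p = 0.0462), which was called in only 5 of 14 alternatives. The UTP15 call was lost, among others, with upper-quartile factors, library totals, TMM factors computed without ribosomal protein genes, DESeq2 and the filter at a mean of 10 CPM, and without Scrambled library 1, Scrambled library 2 or shPIWIL4 library 2. WDR75, at 55.6 and 69.5 CPM in shPIWIL4 and 65.6 and 61.8 CPM in Scrambled, and HEATR1, at 183 and 203 CPM in shPIWIL4 and 184 and 178 CPM in Scrambled, overlapped between the groups. Their log2 fold changes were -0.03 (95% interval -0.27 to 0.22) and 0.09 (-0.10 to 0.29), so members of 1 subcomplex did not all pass the test.

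Of the later small-subunit factors, RRP12, an export factor, rose by 0.30 (SE 0.10, edgeR adjusted p = 0.0237), a call made in 7 of 14 alternatives and lost, among others, without Scrambled library 1, Scrambled library 2 or shPIWIL4 library 1 (0.19 without the last of these). The scaffold gene UTP20, the GTPase-like TSR1 and RCL1 had log2 fold changes of 0.21, 0.21 and 0.20, with both shPIWIL4 libraries above both Scrambled ones but adjusted p-values of 0.0859, 0.105 and 0.0953 in edgeR's test. BYSL, the human ENP1, was at 39.6 and 41.6 CPM in shPIWIL4 and 39.9 and 37.9 CPM in Scrambled, which overlap (0.06, 95% interval -0.14 to 0.26). NOB1, the endonuclease that makes the mature end of the small ribosomal RNA, was at 51.8 and 52.5 CPM in shPIWIL4 and 53.8 and 57.2 CPM in Scrambled. It was slightly below in both shPIWIL4 libraries and was not called (-0.09, 95% interval -0.28 to 0.10), though it was called lower with upper-quartile factors.

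**Figure D2:**
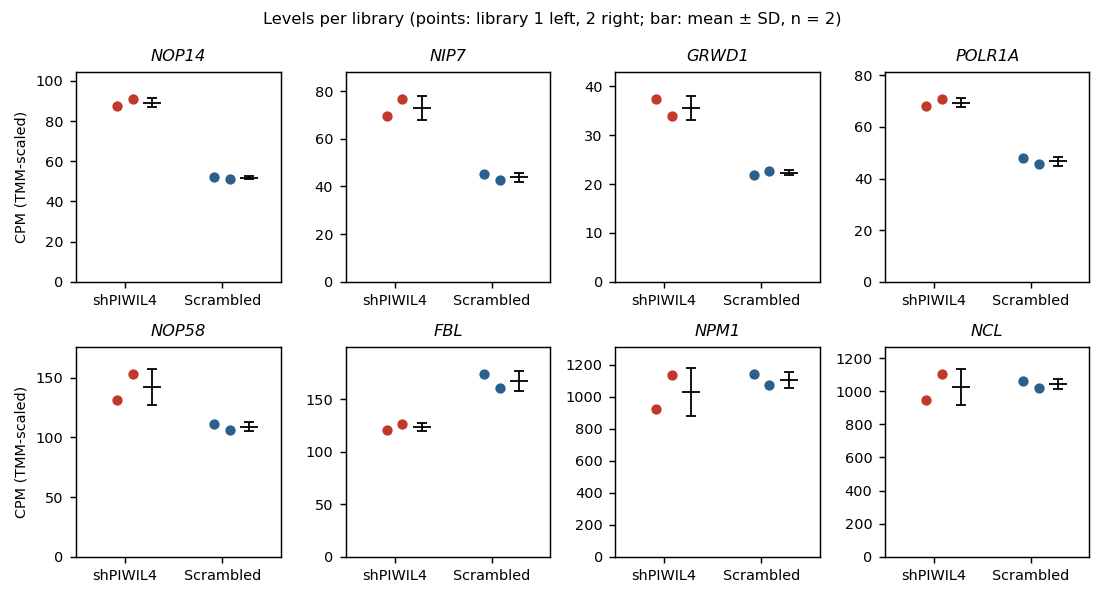
TMM-scaled CPM of 8 transcripts in each library, shPIWIL4 left and Scrambled right in every panel, with the mean and SD (n = 2) beside the points. NOP14, NIP7, GRWD1, POLR1A and NOP58 are above in both shPIWIL4 libraries, FBL is below in both, and NPM1 and NCL overlap.

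Large-subunit (60S) assembly genes rose in 10 of 17 cases and fell in 0, with a median of 0.41. NIP7 was at 69.5 and 76.6 CPM in the shPIWIL4 libraries, against 45.2 and 42.6 CPM in the Scrambled libraries, and rose by 0.74 (SE 0.09, edgeR adjusted p = 0.000113). GRWD1, a chaperone of a ribosomal protein, was at 37.3 and 33.9 CPM in shPIWIL4, against 21.9 and 22.6 CPM in Scrambled, and rose by 0.68 (SE 0.10, edgeR adjusted p = 0.000297). In both cases both shPIWIL4 libraries were far above both Scrambled ones. NOP2, a methyltransferase of the large ribosomal RNA, was at 119 and 131 CPM in shPIWIL4 and 84.8 and 78.8 CPM in Scrambled, and NOP16 was at 47.7 and 46.6 CPM in shPIWIL4 and 29.8 and 31.9 CPM in Scrambled. Both rose by 0.61 (SE 0.09 each), with the groups well apart. NOP2 and an overlapping locus on the same strand share 2550 exonic bases in GENCODE 29, so that part of its reads may be assigned elsewhere.

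The PeBoW complex, needed to process the large-subunit RNA, consists of PES1, BOP1 and WDR12, and all 3 lay above in both shPIWIL4 libraries. BOP1 was at 39.7 and 28.2 CPM in shPIWIL4 and 19.7 and 24.2 CPM in Scrambled, the widest scatter of the 3, with a log2 fold change of 0.62 (SE 0.16, edgeR adjusted p = 0.00866). That call was lost without a filter on low counts and with the filter at a mean of 10 CPM (edgeR adjusted p up to 0.0612), and the log2 fold change was 0.36 without shPIWIL4 library 1. PES1 was at 88.0 and 80.2 CPM in shPIWIL4 and 65.2 and 70.0 CPM in Scrambled, a rise of 0.31 (SE 0.09, edgeR adjusted p = 0.0118) that was called in 11 of 14 alternatives, and not without Scrambled library 1. WDR12 was at 56.5 and 67.6 CPM in shPIWIL4 and 55.8 and 51.3 CPM in Scrambled, with its closest libraries under 1 CPM apart, and was not called (0.21, 95% interval -0.02 to 0.45).

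Further large-subunit genes rose by similar amounts: RRP1 by 0.48, EBNA1BP2 by 0.47, RRS1, which helps to install the small ribosomal RNA of the large subunit, by 0.46, and NOC3L by 0.41. Their edgeR adjusted p-values were 0.00169, 0.00261, 0.00839 and 0.00456, and NOC3L was not called without Scrambled library 2. GNL3, nucleostemin, a nucleolar GTPase, was at 166 and 198 CPM in shPIWIL4 and 165 and 149 CPM in Scrambled. Its groups nearly touched (0.22, 95% interval -0.02 to 0.45), and BRIX1 and MRTO4 were also above in both shPIWIL4 libraries without passing the test (0.17 and 0.16). NOC2L, WDR74 and PPAN overlapped between the groups, with log2 fold changes of 0.07, -0.04 and -0.09. PPAN shares 1544 exonic bases with a read-through transcript and its neighbour, and its count is uncertain. It was called lower without shPIWIL4 library 1 (-0.26, edgeR adjusted p = 0.0168).

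Levels per length, read from the deposited TPM, spanned a wide range, with NPM1 and NCL highest and UTP20 and UTP15 lowest in both groups. Between these some ranks moved, as for NIP7 (16 in shPIWIL4, 25 in Scrambled) and PPAN (30 in shPIWIL4, 22 in Scrambled). NPM1 averaged 1192 TPM in shPIWIL4 and 1242 TPM in Scrambled, and NCL 778 TPM in shPIWIL4 and 769 TPM in Scrambled, far above all others. FBL was next in Scrambled with 294 and 279 TPM, clear of NOP56 with 190 and 181 TPM. In shPIWIL4 FBL was at 218 and 220 TPM and NOP56 at 212 and 238 TPM, so these neighbours were not separated beyond their spread there. At the low end stood UTP15, with 7.44 and 7.76 TPM in shPIWIL4 and 6.35 and 5.77 TPM in Scrambled, and UTP20, with 10.3 and 11.2 TPM in shPIWIL4 and 9.15 and 8.98 TPM in Scrambled. Across the 45 genes, log10 TPM in Scrambled and the log2 fold change had a Pearson r of -0.516 and a Spearman rho of -0.487, a description over genes that share the same 4 libraries, with the Scrambled level entering both measures.

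**Figure D3:**
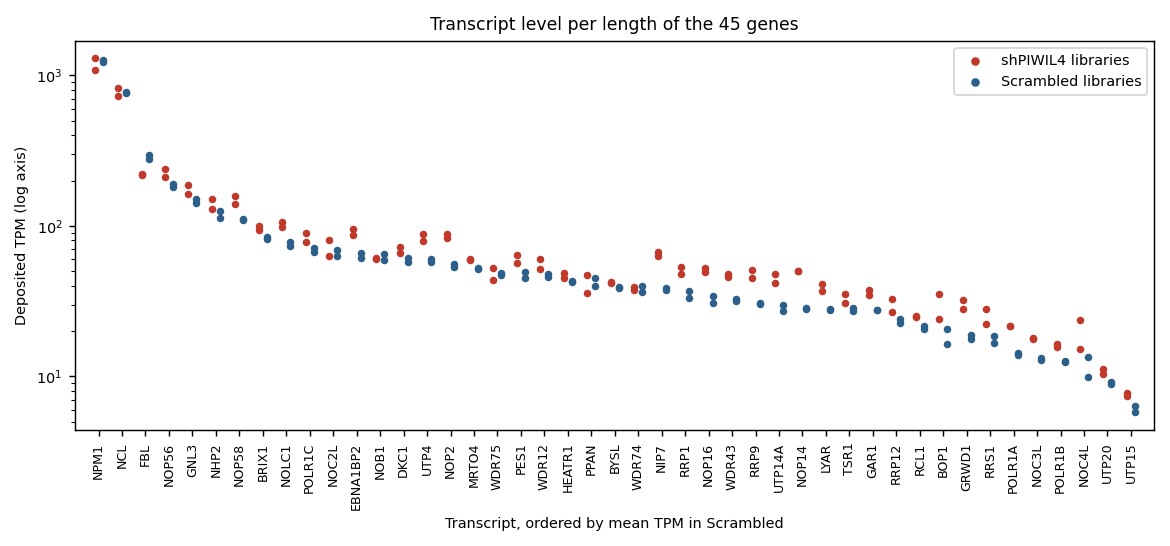
Deposited TPM (log axis) of the 45 transcripts in the shPIWIL4 (red, left of each tick) and Scrambled (blue, right) libraries, ordered by the mean in Scrambled. NPM1 and NCL stand far above the rest, FBL is the transcript with blue above red by the widest margin, and UTP15 is lowest in both groups.

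The 45 genes together took 0.494% and 0.535% of all counts in the shPIWIL4 libraries and 0.494% and 0.477% in the Scrambled libraries, and the groups overlapped. NPM1 and NCL alone held 37.9% and 40.6% of those counts in shPIWIL4 and 45.1% and 44.8% in Scrambled. Without them, the other 43 took 0.307% and 0.318% in shPIWIL4, against 0.271% and 0.264% in Scrambled, and the groups were apart. NPM1 and NCL, the most abundant of the 45, were not called.

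Other genes of the pathway were taken from 5 lists, also chosen with earlier results of these data known. The lists held 142 names, of which 140 were tested. Of these 75 rose (53.6%) and 7 fell, and the list's median was 0.30 on the log2 scale. In the other small-subunit assembly genes 27 of 44 rose and 1 fell, with LTV1, an export-linked factor, at 141 and 165 CPM in shPIWIL4 and 79.1 and 73.3 CPM in Scrambled, a rise of 1.00 (SE 0.10). BUD23, which methylates the small ribosomal RNA, NOL11 and AATF rose by 0.85, 0.84 and 0.82, while ESF1 fell by 0.31. Among 47 other large-subunit genes 26 rose and 3 fell. The GTPase gene LSG1, which acts in the last cytoplasmic steps, was at 86.3 and 98.2 CPM in shPIWIL4 and 52.9 and 50.1 CPM in Scrambled, and rose by 0.84, and GNL3L, LAS1L and PAK1IP1 rose by 0.70, 0.63 and 0.73. NOP53 was at 114 and 87.0 CPM in shPIWIL4 and 218 and 242 CPM in Scrambled and fell by 1.2 on the log2 scale (SE 0.12), and NSA2 and NLE1 fell by 0.42 and 0.38. The largest edgeR adjusted p among these named genes was 0.0255, that of ESF1.

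The exosome and RNase MRP genes, which trim and cut ribosomal RNA precursors, rose in 16 of 25 cases and fell in 0, and the 4 with the smallest p were RPP25 (0.91), RPP14 (0.64), MPHOSPH6 (0.51) and POP4 (0.57). Among 13 other Pol I genes 4 rose and 3 fell, and these shares of 30.8% and 23.1% were near those over all genes tested. POLR1F, a stalk subunit, was at 81.5 and 80.4 CPM in shPIWIL4 and 48.1 and 54.1 CPM in Scrambled, and rose by 0.66. UBTF, which marks active ribosomal RNA genes, the initiation factor gene RRN3 and TCOF1 rose by 0.43, 0.41 and 0.32. POLR1D, the partner of POLR1C, was at 74.8 and 76.8 CPM in shPIWIL4 and 98.1 and 95.4 CPM in Scrambled and fell by 0.35, POLR1G fell by 0.31, and CAVIN1, also known as a Pol I transcript release factor, fell by 2.0 on the log2 scale at a level of 0.414 and 0.346 CPM in shPIWIL4 and 1.89 and 1.27 CPM in Scrambled. Of 11 other snoRNP genes 2 rose, RUVBL1 by 0.59 and SHQ1 by 0.38, and 0 fell. The share of rises was 18.2%, beside 28.7% over all genes tested, and with 11 genes the difference was not tested. Both shPIWIL4 libraries were above both Scrambled ones in 6 of the 11 (54.5%, against 39.1% of all genes tested). The median of the 11 was 0.18. Among the named exosome, RNase MRP, Pol I and snoRNP genes the largest edgeR adjusted p was 0.0179, that of POLR1G. The number of falls over the 5 lists was 2 without Scrambled library 1, 4 without Scrambled library 2 and 13 without shPIWIL4 library 2.

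The assembly genes and the genes of the ribosomal proteins they handle did not move alike. Of 81 cytosolic ribosomal protein genes tested, 77 fell and 3 rose, and the median over the 81 was -0.73 on the log2 scale. Their share of all counts was 6.77% and 7.13% in shPIWIL4 and 12.5% and 11.8% in Scrambled. The counts of the 45 genes amounted to 0.0729 and 0.0750 of the ribosomal protein counts in shPIWIL4, against 0.0395 and 0.0406 in Scrambled. With TMM factors computed without ribosomal protein genes, 23 of the 45 were called higher and the median was 0.28, close to the values with all genes in the scaling.

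**Figure D4:**
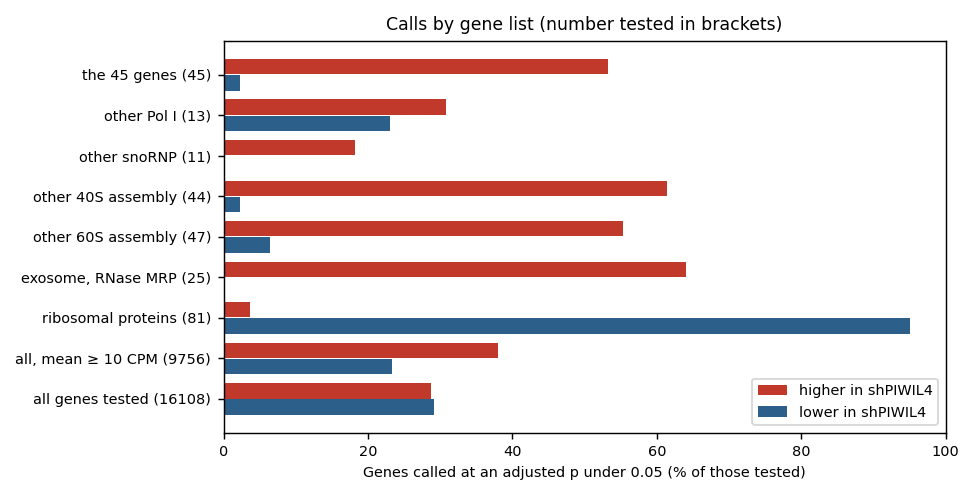
Share of tested genes called higher (red) and lower (blue) in shPIWIL4 at an adjusted p under 0.05 in edgeR's test, for the 45 genes, 5 lists of other ribosome biogenesis genes, cytosolic ribosomal protein genes and all genes. The 45 genes reach 53.3% higher and 2.22% lower, ribosomal protein genes 3.70% higher and 95.1% lower, and all genes 28.7% and 29.1%.

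Promoter sequences were read to see what the genes share beyond their function. RefSeq windows (GRCh38.p14) from 250 bases before to 50 bases after a start were matched for 40 of the 45. RRP12, RRS1, BOP1, NOLC1 and NOP58 had no window. All of them were called higher, and whether they hold an E-box is unknown. The E-box CACGTG, which reads the same on both strands, lay in a window of 17 of these 40 genes (42.5%), against 8.77% of all 27305 genes with a window, 26.1% of the other ribosome biogenesis genes and 6.15% of the ribosomal protein genes. Of the 17, 11 rose and 1 fell (median 0.41 on the log2 scale), and of the 23 without it 8 rose and 0 fell (median 0.21). Over all genes tested 28.7% rose. These counts leave out the genes without a window, and the difference was not tested. In the other ribosome biogenesis genes the order was the opposite, with a median of 0.26 for 31 genes with the E-box and 0.31 for 88 without. A match is no evidence of binding, and no protein was measured here. The E-boxes of the 12 called genes are shown with up to 10 bases on each side, 5′ to 3′ on the gene's strand, with the E-box in capitals, and EBNA1BP2, which has 2 windows with an E-box, is given with both.

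NOP14 at chr4:2963376-2963401 (minus strand): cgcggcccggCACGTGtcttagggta
RRP9 at chr3:51941894-51941919 (minus strand): gttcagctgcCACGTGagttctgcgg
NOP2 at chr12:6568242-6568266 (minus strand): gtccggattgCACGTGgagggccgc
UTP14A at chrX:129905914-129905938 (plus strand): accttgggcCACGTGgaaaccaggg
WDR43 at chr2:28894660-28894685 (plus strand): cacggacgaaCACGTGgctgcagcgg
EBNA1BP2, first window, at chr1:43172792-43172817 (minus strand): tattgttggcCACGTGggatcgaaga
EBNA1BP2, second window, at chr1:43172241-43172258 (minus strand): gattcggtggCACGTGga
UTP4 at chr16:69132623-69132648 (plus strand): agcgcgcgcgCACGTGgggccggggc
LYAR at chr4:4290070-4290095 (minus strand): gcggcgagtcCACGTGctccccgcgg
NOC3L at chr10:94362905-94362930 (minus strand): gggacttcggCACGTGtgtcattccc
GAR1 at chr4:109815783-109815808 (plus strand): gccagaggggCACGTGgcgccggtga
PES1 at chr22:30591882-30591907 (minus strand): cttggcagggCACGTGcgggaggaag
FBL at chr19:39846358-39846383 (minus strand): cgctcttttcCACGTGcgaaagcccc

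In NOP14, WDR43, NOC3L, NOP2, GAR1, PES1, FBL and the second window of EBNA1BP2 the E-box lies after the annotated start of its window. It lies across the start in RRP9 and before it in UTP14A, UTP4, LYAR and the first window of EBNA1BP2. NIP7, NOC4L, GRWD1 and NOP16 rose by 0.61 or more with no CACGTG in their windows, and FBL fell with one. Other motifs were searched on both strands. CCGGAAG, the core of ETS sites, was in 16 of the 40 genes and 12.2% of all genes. GGGCGG, the GC box, was in 30 of the 40 and 48.3% of all genes, and CCAAT in 16 of the 40 and 39.7% of all genes.

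A run of at least 7 pyrimidines that begins within 5 bases of the start is typical of ribosomal protein genes, and was found in 64.6% of them, in 10.7% of all genes and in 4 of the 40. These 4 were FBL, NPM1, NOB1 and UTP14A, of which FBL fell, UTP14A rose and the other two were not called. Among the other ribosome biogenesis genes 16 had such a run, with 5 higher, 3 lower and a median of 0.07, against 59 higher, 3 lower and a median of 0.33 in the 103 without. NOP53, NSA2 and NLE1, which fell, were among the 16, as were RSL24D1, DDX54, AFG2A, EXOSC9 and RPP14, which rose. POLR1D, POLR1G and ESF1 fell without such a run. The starts of the 4 genes and of NOP14 for contrast are shown from 10 bases before the start, with the run in capitals.

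FBL at chr19:39846365-39846389 (minus strand): cgcctgcgCTCTTTTCCacgtgcga
NPM1 at chr5:171387839-171387863 (plus strand): agcctgcgTCCTTTCCCTggtgtga
NOB1 at chr16:69754912-69754936 (minus strand): gcgcgCTCCCCTCTCacgcagccaa
UTP14A at chrX:129906154-129906178 (plus strand): aaattgCTTTCCTTCggcttccgtt
NOP14 at chr4:2963392-2963416 (minus strand): acgaggaagcggttccgcggcccgg

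In the 4 genes the annotated start lies inside the run, and the NOP14 sequence holds no run of 7 pyrimidines. Several nucleolar genes carry snoRNAs or scaRNAs in their introns. GENCODE 29 annotates snoRNAs or scaRNAs within the bounds and on the strand of 9 of the 45. NCL, NOP56, NOP58, GNL3 and DKC1 are among these 9. Of these 9, 2 rose (22.2%) and the median was 0.22. Of the other 36, 22 rose (61.1%) and 1 fell, with a median of 0.32. Both shPIWIL4 libraries lay above both Scrambled ones in 7 of the 9 and in 28 of the 36. That is 77.8% in each set, against 39.1% of all genes tested. Over all genes tested 28.7% rose, and the difference between the 9 and the 36 was not tested.

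The genes varied between libraries of the same group, and that variation followed base composition. In the shPIWIL4 group the log2 difference of library 1 minus library 2 ran from -0.32 for WDR75 to 0.59 for NOC4L, and in the Scrambled group from -0.39 for NOC4L to 0.18. Across the 45 genes the GC content of the longest transcript had a Pearson r of 0.785 with the difference in shPIWIL4 and -0.696 with that in Scrambled, which describes genes measured in the same libraries. Of 14 genes with at least 55% GC, 12 were higher in shPIWIL4 library 1 than in library 2, and of 13 genes under 45% GC, 0 were. The log2 fold change between the groups had an r of 0.16 with GC across the 45. Over 14821 tested genes with a GC value, r with GC was 0.502 for the shPIWIL4 difference and -0.143 for the Scrambled one. For the log2 fold change it was -0.127 over those genes. In the 3 GC classes of the 45, 9 of 14 genes with at least 55%, 9 of 18 with 45 to 55% and 6 of 13 under 45% were called higher. The medians were 0.39, 0.29 and 0.22. With a GC offset per library, an alternative added after the data were seen, 30 of the 45 were called higher, 1 was called lower and the median was 0.27.

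**Figure D5:**
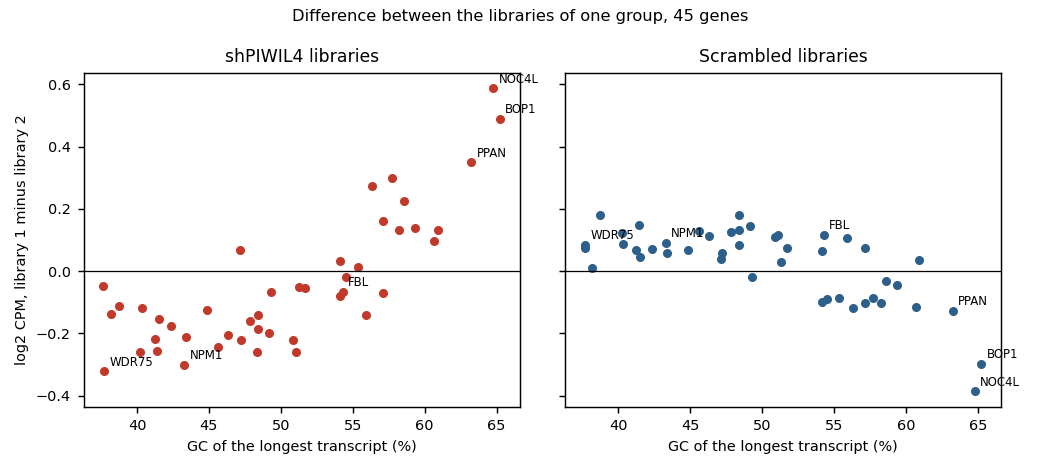
Log2 difference of library 1 minus library 2 in CPM against the GC content of the longest transcript, for the 45 genes in the shPIWIL4 (left) and Scrambled (right) libraries. NOC4L, BOP1 and PPAN, with the highest GC, lie highest in the shPIWIL4 panel (0.59, 0.49 and 0.35) and lowest in the Scrambled panel.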

How the data were processed

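Raw read counts per gene, deposited for each of the 4 libraries with FPKM and TPM that the authors derived from them, were used. STAR, featureCounts and DESeq2 are named, with build hg19, in the submitters' processing notes; no version, annotation or strand setting is stated there. The deposited FPKM served only to recover gene lengths, and the deposited TPM only to compare levels between genes. Groups came from sample titles, since the treatment label of the shPIWIL4 samples also says scrambled; PIWIL4 counts were lower in the samples titled shPIWIL4. Counts were tested with edgeR 4.0.16 (R 4.3.3): filterByExpr (minimum count 10, minimum total 15), TMM factors, robust quasi-likelihood F test with group as the only term, Benjamini-Hochberg adjustment over 16108 genes, called at an adjusted p under 0.05. SE is the absolute log2 fold change over the root of F, and CPM was computed with TMM factors. Alternatives used DESeq2 1.42.0, other scalings, filters and a replicate block. The method was tested on simulated counts. Libraries of a group differed by more than sampling noise (chi-square per gene 27.9 and 7.89). Names of 28 genes had become dates and are not used. Members, role groups and lists were chosen with earlier results of these data known. All 45 members are accounted for; of the other biogenesis genes, the 4 with the smallest p in each direction of each list were named. Promoters are RefSeq's (GRCh38.p14), and GC, overlaps, pseudogenes and snoRNAs are from GENCODE 29 (GRCh38), not the authors' build, by name.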

Additional observations from a re-analysis of the deposited data

How the results depend on the processing

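Of the 24 transcripts called higher, 16 were called higher under all 14 alternatives as well, and FBL was called lower in all of them. The number called higher was 24 with DESeq2 size factors, 19 with upper-quartile factors, 21 with library totals, 23 with DESeq2, 29 with no filter on low counts and 17 with a mean of at least 10 CPM, and 19 to 33 when 1 library was left out; the number called lower was 2 with upper-quartile factors and 1 to 2 when 1 library was left out. The median log2 fold change was 0.18 with upper-quartile factors and 0.20 with the stricter filter. By role, higher calls among Pol I subunits (2 in the report) numbered 1 with upper-quartile factors, the stricter filter or the replicate block, and 1 to 3 when 1 library was left out. For box H/ACA (1 in the report) they numbered 0 with upper-quartile factors, the stricter filter or the block, 2 with the GC offset, 3 with the crossed block and 0 to 2 when 1 library was left out. For 40S assembly (7 in the report) there were 4 under either library totals or the filter at 10 CPM, and 1 gene was lower with upper-quartile factors. Leaving out 1 library gave 0 to 1 lower calls among nucleolar phosphoproteins and 0 to 1 in 60S assembly. Of the other biogenesis genes (7 in the report) 14 were lower with upper-quartile factors, 13 with the stricter filter, 15 with the GC offset, 12 with the crossed block and 2 to 13 when 1 library was left out. With the stricter filter, which called 17 of the 45 higher, 2874 of all genes kept were higher and 2856 lower. In the main fit 9756 genes had a mean of at least 10 CPM, with 38% higher and 23.3% lower.

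Signs changed for transcripts that were not called. With upper-quartile factors HEATR1, BYSL and NOC2L were at -0.030, -0.060 and -0.048, and with the stricter filter at -0.0090, -0.040 and -0.028. Without the filter NCL and WDR75 were at 0.011 each, and with the GC offset PPAN was at 0.036. When 1 library was left out NPM1 ranged from -0.25 to 0.050, NCL from -0.13 to 0.089, WDR75 from -0.19 to 0.14, PPAN from -0.26 to 0.083, NOC2L from -0.075 to 0.22 and WDR74 from -0.054 to 0.011. The causes of these changes were not tested.

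The groups share replicate numbers, which the titles write after "exp. rep". No label says that a number marks a shared culture or day, so whether same-numbered libraries share one is unknown. With the replicate block 20 of the 45 were called higher and 1 lower. The calls of POLR1B, GAR1, UTP15 and RRP12 were lost with it. The deviations of same-numbered libraries had an r of -0.483 over all genes tested and -0.887 over the 45. With the numbers crossed, a pairing added after seeing the data, 35 of the 45 were called higher and 1 lower. The median log2 fold change of the 45 was 0.30 with it, as in the main fit. Except for upper-quartile factors and the stricter filter, calls over all genes are not given beside those under the alternatives. The other counts therefore do not show whether the 45 differ from all genes. With 2 libraries a group, and at 262 to 59075 counts a gene, the calls rest on few libraries rather than on few reads.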
